A study of Mus musculus with 12 samples.

Results

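Expression of 9 genes of type I interferon signalling was followed in mouse embryonic fibroblasts that carried or lacked Atm, with and without irradiation. The genes were the ligand Ifnb1, the receptor chains Ifnar1 and Ifnar2, the kinase Jak1, and the transcription factors Stat2, Irf9, Irf7, Irf1 and Irf3. They were taken as every probe whose RefSeq accession maps to one of these symbols. That gave 13 probes for the 9 genes, out of 17305 genes named on the array, and all 9 genes entered the test.

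Type I interferons are secreted proteins that cells make on sensing foreign or misplaced nucleic acid. Interferon beta binds the Ifnar1 and Ifnar2 receptor pair, which carries the kinases Tyk2 and Jak1, and these phosphorylate Stat2 among other proteins. Phosphorylated Stat2 joins Irf9 in a complex called ISGF3, which binds a DNA element named ISRE in front of interferon-stimulated genes. Among the genes it induces are Stat2, Irf9 and Irf7 themselves. Irf3 is held ready in resting cells and activated by phosphorylation, and with Irf7 it drives the interferon genes. Fibroblasts are a classic source of interferon beta.

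Atm encodes a kinase activated by breaks in DNA, and the fibroblasts either had the gene (Atm-WT) or were knockouts (Atm-KO). Cells of each genotype received 4.32 Gy or no irradiation, and the labels give 72 h of culture after it. Each of the 4 groups held 3 samples, nonirradiated Atm-WT, irradiated Atm-WT, nonirradiated Atm-KO and irradiated Atm-KO, with each sample on 1 single-colour Agilent array. The Atm allele, the embryos of origin and the passage are not given in the sources used here. Whether replicates were separate cultures is not stated. The p-values therefore rest on the variation among these samples alone, and that may be technical variation.

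A level is the log2 processed signal of a probe minus the log2 of its array's 75th percentile, which was 379 to 757 signal units. A level of 0 is therefore the 75th percentile, and a difference of 1 is a doubling. Probes differ in brightness, so levels are compared between arrays and not between genes. On each array 56.0% to 65.0% of spots were well above background and 0 were saturated. As a check of the labels, the brighter Atm probe exceeded background in 2 nonirradiated and 3 irradiated Atm-WT samples, and in 0 nonirradiated and 1 irradiated Atm-KO sample. It was lower in Atm-KO cells by differences of -1.73 ± 0.658 in nonirradiated (limma, adjusted p = 0.475) and -2.52 ± 0.658 in irradiated cells (adjusted p = 0.225), neither of which passed the test. All 12 fibroblast markers were well above background on all arrays. The 3 slides all carried irradiated samples at positions 2 and 4 and the others at positions 1 and 3, so array position and irradiation cannot be told apart. Slide 1 held only Atm-WT arrays and slide 3 only Atm-KO arrays. Slide and genotype are therefore largely confounded in every comparison between genotypes, the gene lists included. In bulk cultures, fewer cells of a type and less RNA per cell cannot be told apart.

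Promoter sequences of the 4 members whose levels varied most between groups, and of Irf1, are shown because ISGF3 acts on such sequence. Each runs 5′ to 3′ over the 250 bases before the transcription start, from RefSeq on build GRCm38.p6. Capitals mark matches to 3 patterns searched on both strands: the ISRE core, which is GAAA and again GAAA with any 2 bases between them, the Stat dimer site (GAS) TTCNNNGAA, and the κB site bound by NF-κB proteins.

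Stat2, chr10:128270248-128270497, plus strand: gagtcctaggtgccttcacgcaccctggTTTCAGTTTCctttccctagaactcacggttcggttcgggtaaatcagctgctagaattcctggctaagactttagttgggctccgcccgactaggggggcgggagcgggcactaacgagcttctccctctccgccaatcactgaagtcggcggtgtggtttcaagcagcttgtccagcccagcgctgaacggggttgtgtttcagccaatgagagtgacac
Irf9, chr14:55603735-55603984, plus strand: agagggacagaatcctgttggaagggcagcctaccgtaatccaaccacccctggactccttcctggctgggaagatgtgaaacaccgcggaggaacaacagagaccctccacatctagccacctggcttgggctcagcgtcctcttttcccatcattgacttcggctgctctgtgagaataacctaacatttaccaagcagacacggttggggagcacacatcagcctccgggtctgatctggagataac
Irf7, chr7:141266425-141266674, minus strand: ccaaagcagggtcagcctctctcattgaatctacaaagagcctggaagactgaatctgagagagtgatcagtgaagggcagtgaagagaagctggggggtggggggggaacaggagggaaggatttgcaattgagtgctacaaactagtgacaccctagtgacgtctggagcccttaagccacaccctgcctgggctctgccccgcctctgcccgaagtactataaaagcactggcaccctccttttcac
Ifnb1, chr4:88522795-88523044, minus strand: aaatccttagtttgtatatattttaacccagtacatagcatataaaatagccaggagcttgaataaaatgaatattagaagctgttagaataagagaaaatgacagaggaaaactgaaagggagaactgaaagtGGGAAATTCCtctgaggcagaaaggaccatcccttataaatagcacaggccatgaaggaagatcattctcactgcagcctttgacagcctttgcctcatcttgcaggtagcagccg
Irf1, chr11:53769764-53770013, plus strand: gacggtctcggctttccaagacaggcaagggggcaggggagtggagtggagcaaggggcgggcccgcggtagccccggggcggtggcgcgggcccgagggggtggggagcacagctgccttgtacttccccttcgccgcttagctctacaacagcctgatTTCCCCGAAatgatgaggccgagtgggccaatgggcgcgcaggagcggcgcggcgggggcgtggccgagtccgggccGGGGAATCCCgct

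The 9 members had 11 promoter entries, since Irf1 and Irf9 had 2 each, and for these the first is printed. An ISRE core was found in 2.98% of the 32851 promoters in the table and in 1 of the 11 member entries. That entry was Stat2, with TTTCAGTTTC at 222 to 213 bases before the start, the core read on the other strand. A GAS site stood in 7.02% of all promoters and in the entries of Irf1, as TTCCCCGAA 90 to 82 bases before the start, and of Ifnar2, as TTCCTGGAA 214 to 206 bases before it. A κB site stood in 7.25% of all promoters, in Ifnb1 as GGGAAATTCC from 116 bases before the start and in Irf1 as GGGGAATCCC from 13 bases before it. The 3 patterns do not overlap each other in these entries. Of 38 promoter entries of interferon-stimulated genes, 13, or 34.2%, held an ISRE core. The windows of Irf7 and Irf9 held none of the 3 patterns, which says only that these letters are not in these windows.

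Irradiation of Atm-WT cells was followed by higher Irf7 and Stat2, and 2 of the 9 members were called higher and 0 lower. Over all 18431 features tested, 0.423% were called higher. The call is an adjusted p under 0.05 from limma with Benjamini-Hochberg adjustment over all features. Same-numbered samples deviated together from their group means in this comparison, so the fit was also made with the pair as a block. In that fit Irf9 and Ifnb1 were called higher as well, 4 of 9 members against 1.64% of all features. The median difference of the 9 members was 0.22, and that of all features -0.02.

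Irf7, the interferon-inducible factor that drives interferon alpha and beta genes, showed the largest rise of the 9. In nonirradiated Atm-WT cells its levels were -1.63, -0.33 and -0.52 in replicates 1 to 3. In irradiated Atm-WT cells they were 2.75, 2.95 and 3.13. The nonirradiated samples were all low, with replicate 1 the lowest, and the groups did not overlap. The difference was 3.77 ± 0.354 (SE, n = 3 arrays a group), a 13.7-fold rise (limma, adjusted p = 0.000607). Within pairs it was 4.38, 3.28 and 3.65.

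Stat2, the ISGF3 subunit that carries the activation domain, rose 3.94-fold. Stat2 levels were 2.29, 2.97 and 2.28 in nonirradiated and 4.20, 4.71 and 4.57 in irradiated cells. Every irradiated sample lay above every nonirradiated one. The difference was 1.98 ± 0.288 (limma, adjusted p = 0.00698). The call was lost in a fit of the 6 Atm-WT arrays alone (adjusted p = 0.0603), where the difference was the same.

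Irf9, the DNA-binding subunit of ISGF3, had levels of 2.17, 2.53 and 2.26 without irradiation and 3.20, 3.59 and 3.52 after it. Here too the groups were apart. The difference was 1.12 ± 0.230, or 2.17-fold, with adjusted p = 0.0750 in limma and adjusted p = 0.0116 with the pair as a block. Within pairs Irf9 differed by 1.04, 1.05 and 1.26. Irf9 was also called with quantile normalization (adjusted p = 0.00933), and with slide as a fixed term (0.0455) or random block (0.0419). Among the other settings adjusted p from limma went up to 0.298. None of the 12 fits that left out 1 array called Irf9 (limma, adjusted p = 0.0513 to 0.371). With the replicate 1 samples left out, the blocked fit gave adjusted p = 0.0578 for Irf9 and 2 members called, Irf7 and Stat2. A second, dimmer Irf9 probe gave 1.23 ± 0.261.

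Ifnb1, the only type I ligand among the members, was near the detection limit. Its levels in Atm-WT cells were -7.85, -7.07 and -7.51 without irradiation, none of them well above background. They were -5.00, -5.72 and -6.42 after irradiation, of which only replicate 1 was well above background. The irradiated samples were all higher, by 1.76 ± 0.378 (limma, adjusted p = 0.0918, and 0.0280 with the block). No fold is given, because the nonirradiated level is only a bound. With normexp background correction in place of the scanner's own correction, the difference turned to -0.67. The blocked call was lost without the replicate 1 samples (adjusted p = 0.121).

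**Figure D1:**
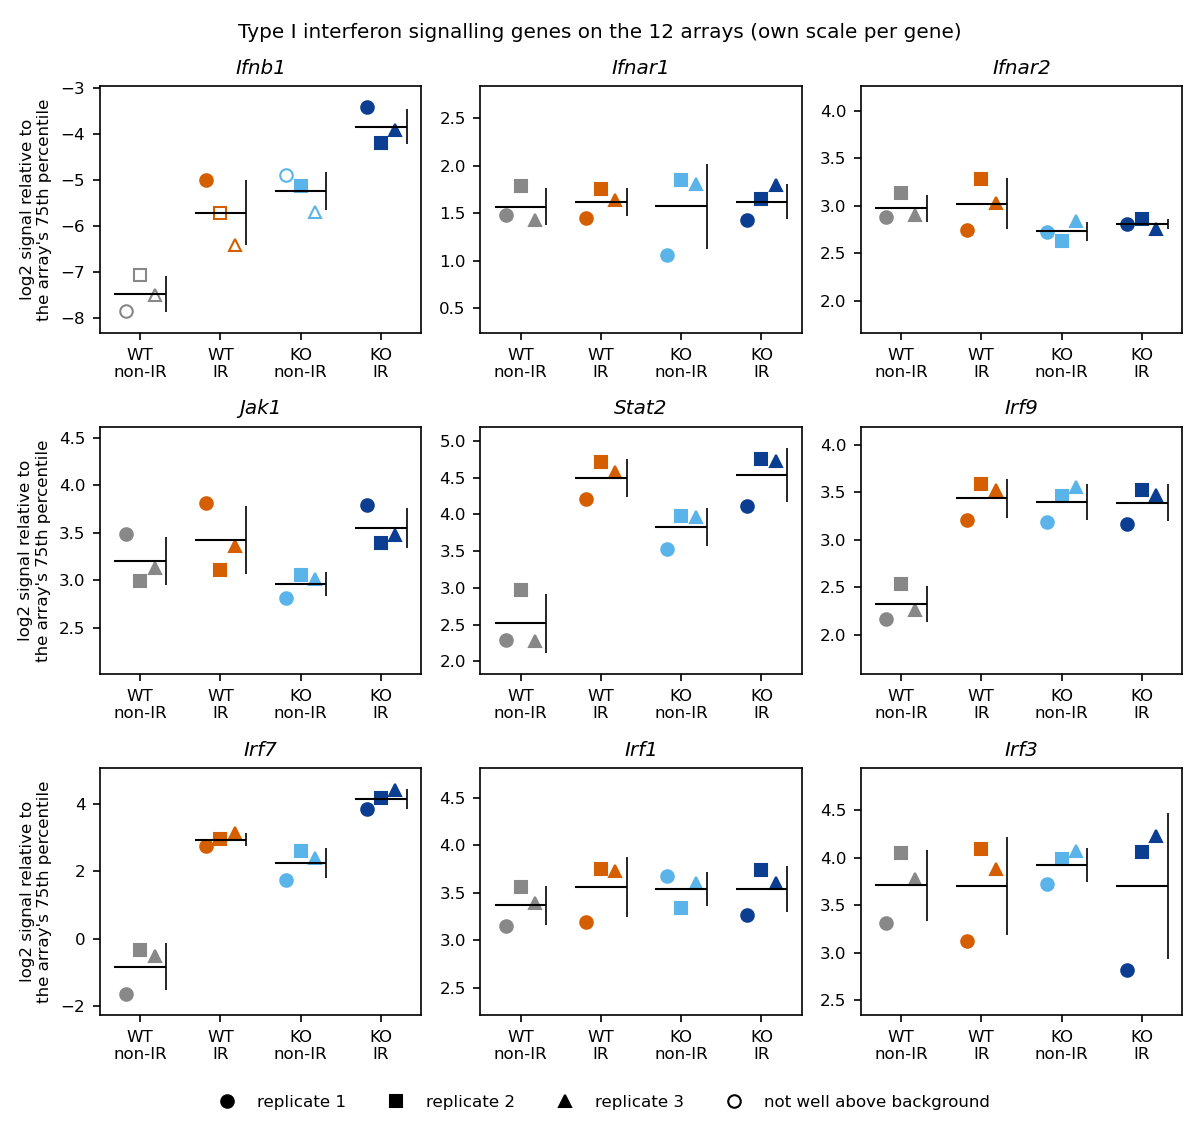
Level (vertical axis, log2 units with each array's 75th percentile at 0, own scale per gene) for the 9 genes in the 4 groups of 3 arrays. Symbols are replicates, horizontal lines group means, vertical lines the mean ± SD, and open symbols arrays not well above background. Irf7 runs from -1.63 to 4.41, Irf9 is low only in nonirradiated Atm-WT cells, and the receptor chains, Irf1 and Irf3 overlap between most groups.

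The receptor chains, the kinase and the remaining factors showed no such shift in Atm-WT cells. Ifnar1, the chain that carries Tyk2, differed by 0.05 ± 0.261, with a 95% interval of -0.52 to 0.62. Ifnar2, the high-affinity chain, differed by 0.05 ± 0.218, with an interval of -0.43 to 0.52. These intervals do not reach the differences measured for Irf7, Stat2 or Irf9. Jak1 differed by 0.22 ± 0.253, Irf1, a factor induced by interferons and by NF-κB, by 0.19 ± 0.248, and Irf3 by -0.011 ± 0.386. For each of these 5 genes irradiated and nonirradiated samples overlapped, and each adjusted p from limma was 0.99997.

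Irradiation of Atm-KO cells gave 0 of 9 members called, where 0.00543% of all features, 1 feature, was called in either direction by limma and 1462 features had an unadjusted p under 0.05. In the fit with pairs as a block, Irf7 was called higher, 1 of 9 members against 1.18% of all features. Some samples of different number correlated more highly than a same-numbered pair in Atm-KO cells, so the pairing is uncertain. The median difference was 0.07 over the members and -0.05 over all features. Levels of Irf7 were 1.74, 2.61 and 2.40 without irradiation and 3.85, 4.18 and 4.41 after it, so that every irradiated sample was higher. The difference was 1.90 ± 0.354, or 3.73-fold, with adjusted p = 0.166 in limma and 0.0138 with the block. It was 2.11, 1.57 and 2.01 within pairs. Without the replicate 1 samples the blocked fit gave 1.79 with adjusted p = 0.0914, and 0 members were called.

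Irf9 did not follow Irf7 in Atm-KO cells. Nonirradiated samples had 3.18, 3.46 and 3.55, and irradiated samples 3.17, 3.53 and 3.47. The groups overlapped fully, with a difference of -0.0077 ± 0.230 and a 95% interval of -0.51 to 0.49. The second Irf9 probe gave 0.04 ± 0.261. Stat2 levels were 3.52, 3.98 and 3.96 without irradiation and 4.11, 4.76 and 4.73 after it. All irradiated samples were higher, by 0.71 ± 0.288, with adjusted p = 0.565 in limma and 0.0878 with the block.

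Ifnb1 was well above background on 1 nonirradiated array, replicate 2, and on all 3 irradiated arrays of Atm-KO cells, the group through which it entered the test. Levels were -4.90, -5.13 and -5.69 in nonirradiated and -3.42, -4.19 and -3.90 in irradiated samples. The groups did not overlap, and the difference was 1.40 ± 0.378 (limma, adjusted p = 0.278, and 0.0663 with the block). Jak1 was also higher in all irradiated Atm-KO samples. Its levels were 2.81, 3.05 and 3.02 without irradiation and 3.79, 3.39 and 3.47 after it, a difference of 0.59 ± 0.253 (limma, adjusted p = 0.579, and 0.141 with the block). Jak1's second probe gave 0.44 ± 0.270, with overlapping groups. Ifnar1, Ifnar2, Irf1 and Irf3 differed by 0.05, 0.07, 0.00076 and -0.22, with overlapping groups.

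**Figure D2:**
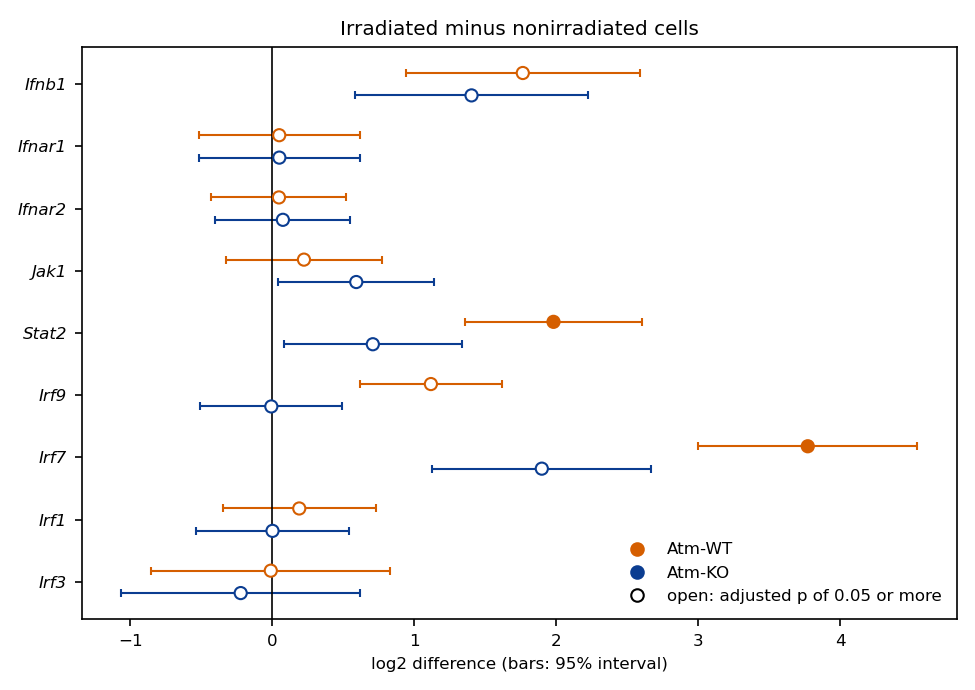
Irradiated minus nonirradiated level (log2, horizontal axis) for each gene in Atm-WT and Atm-KO cells, from limma on 12 arrays, with 95% intervals as bars and filled symbols for adjusted p under 0.05. Irf7 and Stat2 in Atm-WT cells are filled, and Irf9 lies at 1.12 in Atm-WT and -0.0077 in Atm-KO cells.

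The irradiation effect of the 2 genotypes was then compared directly, as the difference of the differences (Atm-KO minus Atm-WT). No member was called, with or without the block, where 0.00543% and 0.0217% of all features were called in either direction. At an unadjusted p under 0.05 limma gave 166 features without the block. Irf7 differed by -1.87 ± 0.501, with an unadjusted p of 0.00277, rank 18 of all features, but adjusted p = 0.99992 in limma and 0.232 with the block. Stat2 differed by -1.27 ± 0.407 (adjusted p = 0.99992, and 0.372 with the block) and Irf9 by -1.12 ± 0.325 (adjusted p = 0.99992, and 0.445 with the block). For these 3 genes each Atm-WT pair differed by more than each Atm-KO pair, and for Jak1 each differed by less. How many of all features have pairs so separated was not counted, and the Atm-KO pairing is uncertain. The separation is therefore no support beside the test. Ifnb1 differed by -0.36 ± 0.534 and Jak1 by 0.37 ± 0.357, and the Ifnb1 difference changed sign with normexp correction (1.07). A smaller effect of irradiation in Atm-KO cells was thus measured for Irf7, Stat2 and Irf9 but did not pass the test.

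**Figure D3:**
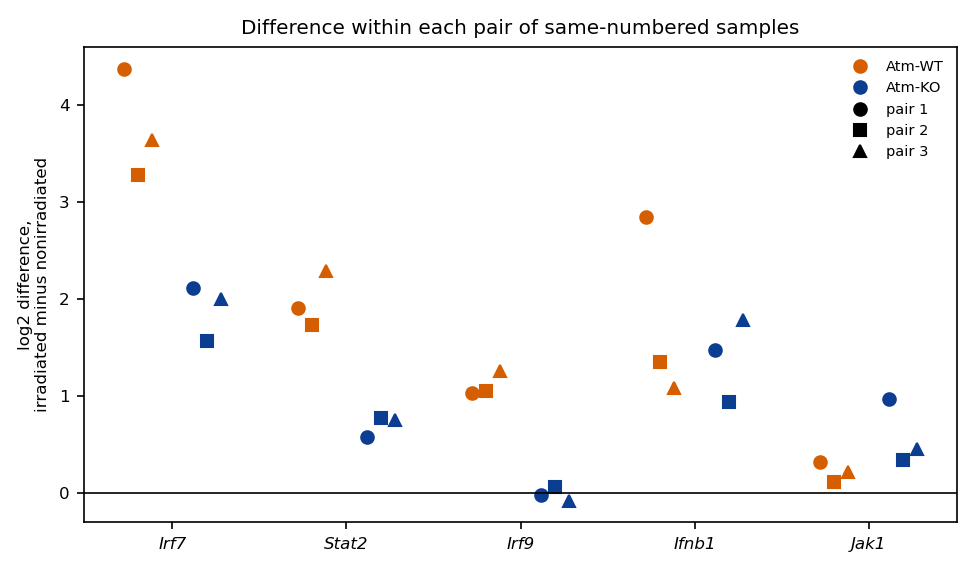
Irradiated minus nonirradiated level (log2, vertical axis) within each same-numbered pair, 3 pairs a genotype, for the 4 genes with the largest differences in Atm-WT cells and for Jak1. The 3 Atm-WT pairs lie above the 3 Atm-KO pairs for Irf7 (3.28 to 4.38 against 1.57 to 2.11), Stat2 and Irf9. They lie below them for Jak1, and the pairs of Ifnb1 intermingle. The share of all features with pairs so separated was not counted.

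Each same-numbered pair lay on 1 slide, so within-slide values regroup the pair differences and are no separate check. Slide 2 held 1 pair of each genotype. The 4 genes with the largest differences in Atm-WT cells kept their sign between slides. For Irf9 in Atm-KO cells the values were near 0, and its pairs differed in sign (-0.014, 0.068 and -0.076). On the 2 slides with Atm-WT arrays the mean within-slide difference was 3.83 and 3.65 for Irf7, 1.82 and 2.30 for Stat2, 1.04 and 1.26 for Irf9, and 2.10 and 1.09 for Ifnb1. On the 2 slides with Atm-KO arrays it was 2.11 and 1.79 for Irf7, 0.58 and 0.77 for Stat2, -0.014 and -0.0043 for Irf9, and 1.48 and 1.37 for Ifnb1. Among the other members in Atm-KO cells the sign differed between slides for Irf1 (-0.41 and 0.20), Irf3 (-0.90 and 0.12) and Ifnar1 (0.36 and -0.11).

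The nonirradiated samples of the 2 genotypes also differed, with genotype largely confounded with slide. Without irradiation 2 of 9 members, Irf7 and Ifnb1, were called higher in Atm-KO cells and 0 lower, where 0.391% of all features were called higher. The median difference was 0.21 over the members and 0.04 over all features. This comparison shares the nonirradiated Atm-WT arrays with the irradiation comparison above. Irf7 levels of 1.74, 2.61 and 2.40 in Atm-KO stood against -1.63, -0.33 and -0.52 in Atm-WT cells. No sample overlapped, and the difference was 3.08 ± 0.354, or 8.44-fold (limma, adjusted p = 0.00110). With slide as a fixed term Irf7 differed by 2.43 and lost its call (adjusted p = 0.0856). On the single slide that held both genotypes, with 1 array each, the difference was 2.26.

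Ifnb1 was higher in all 3 nonirradiated Atm-KO samples, by 2.24 ± 0.378 (limma, adjusted p = 0.0147). No nonirradiated Atm-WT array and only 1 of the 3 Atm-KO arrays was well above background, so no fold is given. The Ifnb1 call was lost without replicate 1 (adjusted p = 0.0590) or replicate 3 (0.0617) of the nonirradiated Atm-WT group, or without replicate 2 of the nonirradiated Atm-KO group (0.0913), and with quantile normalization (1.96, adjusted p = 0.169). With normexp correction the Ifnb1 difference turned to -0.43. On the slide with both genotypes it was 2.61, but no nonirradiated array on that slide was well above background for Ifnb1.

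The ISGF3 subunits lay above Atm-WT levels in every nonirradiated Atm-KO sample but missed the threshold. Stat2 differed by 1.31 ± 0.288, or 2.48-fold (limma, adjusted p = 0.0686), and Irf9 by 1.08 ± 0.230, or 2.11-fold (adjusted p = 0.0559). Both were called without replicate 1 of the irradiated Atm-KO group, which enters the fit only through the shared spread (adjusted p = 0.0376 for Stat2 and 0.0369 for Irf9). Irf9 was also called without replicate 1 of the irradiated Atm-WT group (0.0486). Quantile normalization called both (0.0202 for Stat2 and 0.0174 for Irf9). With slide as a fixed term, limma called neither. Over the alternative settings adjusted p from limma went up to 0.569 for Stat2 and 0.595 for Irf9. Their differences went down to 1.03 and 0.85. With 1 array left out, adjusted p from limma reached 0.348 for Stat2 and 0.307 for Irf9. Within the slide with both genotypes Stat2 differed by 1.25 and Irf9 by 0.92. Ifnar2 was lower in all 3 Atm-KO samples, at 2.72, 2.63 and 2.83 against 2.88, 3.14 and 2.91, a difference of -0.24 ± 0.218 (limma, adjusted p = 0.994). On its second, dimmer probe these groups overlapped, with a difference of -0.13 ± 0.278. Ifnar1 differed by 0.0057, Jak1 by -0.24, Irf1 by 0.17 and Irf3 by 0.21, with overlapping groups.

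Markers of other cells moved with genotype. The summed linear level of 14 macrophage markers was 4.56 to 8.22 in nonirradiated and 3.40 to 5.26 in irradiated Atm-WT samples, against 0.664 to 1.18 and 0.829 to 1.002 in Atm-KO samples, in units of the 75th percentile. Of 12 macrophage markers tested, 11 were called lower in Atm-KO cells without irradiation and 5 after it. Over all features 0.467% and 0.146% were called lower in these comparisons. Adgre1, which defines mature mouse macrophages, was well above background on 0 nonirradiated and 1 irradiated Atm-KO array, and Ptprc, the pan-leukocyte marker, on 1 array of each Atm-WT group and 0 Atm-KO arrays. Irf7, Stat2, Irf9 and Ifnb1 thus had their lowest means in the group with the highest macrophage marker range, and the part of these cells in the levels was not tested. With irradiation of Atm-WT cells 0 of these 12 markers was called. With irradiation of Atm-KO cells 0 was called without the block, and 2 were called higher with it, C1qc (1.17, adjusted p = 0.0290) and Cd53 (1.63, adjusted p = 0.0189), in the same fit that called Irf7. That fit called 1.18% of all features higher. The plasmacytoid and lymphoid sum was 23.7 to 34.1 in nonirradiated Atm-WT samples and 100.1 to 281 in the other groups. Of its 4 tested markers 1 was called, Bst2, which is itself interferon-inducible. Group means of Bst2 were 4.90 to 7.87, and no other marker on this list had a group mean above -2.45. The sum is therefore almost all Bst2 and does not follow a cell type. Epithelial sums were 0.545 to 4.54 and endothelial sums 0.186 to 1.198 over all groups, against 1473 to 2709 for the fibroblast markers. The endothelial marker Cdh5 was called lower in nonirradiated Atm-KO cells, by -3.10 ± 0.614 (limma, adjusted p = 0.0373), and its part in the genotype differences was not tested.

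After irradiation 0 of 9 members were called between genotypes by limma, where 0.206% of all features were called in either direction and 963 features had an unadjusted p under 0.05. Some samples of different number correlated more highly than same-numbered ones here, so use of the number as a block is uncertain. With replicate number as a block Irf7 and Ifnb1 were called higher in Atm-KO cells, where 0.304% of all features were. Ifnb1 had entered the test only through the irradiated Atm-KO arrays, the higher group here, so its place in this count is no support. The median difference was 0.0065 over the members and -0.0050 over all features. Irf7 differed by 1.20 ± 0.354, or 2.30-fold, with adjusted p = 0.331 in limma and 0.0471 with the block. All 3 irradiated Atm-KO samples, 3.85 to 4.41, were above the irradiated Atm-WT samples, 2.75 to 3.13. Ifnb1 differed by 1.88 ± 0.378, with adjusted p = 0.0904 in limma and 0.0386 with the block. All irradiated Atm-KO arrays measured Ifnb1 above background, and 1 of the irradiated Atm-WT arrays did, so no fold is given. The blocked call of Irf7 held without the replicate 1 samples (adjusted p = 0.0181), in a fit that called 1240 of the 18431 features. Ifnb1 was also called in that fit (0.0160), which is no support for the reason given above. No irradiated Atm-WT array left in that fit was well above background for Ifnb1. With slide as a fixed term the Irf7 difference fell to 0.55, and with normexp correction that of Ifnb1 fell to 0.64. Without the block, Ifnb1 was called when replicate 1 of the irradiated Atm-WT group was left out (2.23, adjusted p = 0.0478). That array was the only one of its group well above background, so this call is no support either.

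The other members were not called between irradiated genotypes. Stat2 differed by 0.035 ± 0.288 and Irf9 by -0.047 ± 0.230, with overlapping groups, and their 95% intervals were -0.59 to 0.66 and -0.55 to 0.45. Ifnar1 differed by 0.0065, Ifnar2 by -0.21, Jak1 by 0.13, Irf1 by -0.020 and Irf3 by 0.00094. On the slide with both genotypes the irradiated Irf7 difference was 0.72, that of Ifnb1 3.00, that of Stat2 -0.46 and that of Irf9 -0.35. Each value came from 1 array a genotype, and the Atm-WT array was not well above background for Ifnb1.

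**Figure D4:**
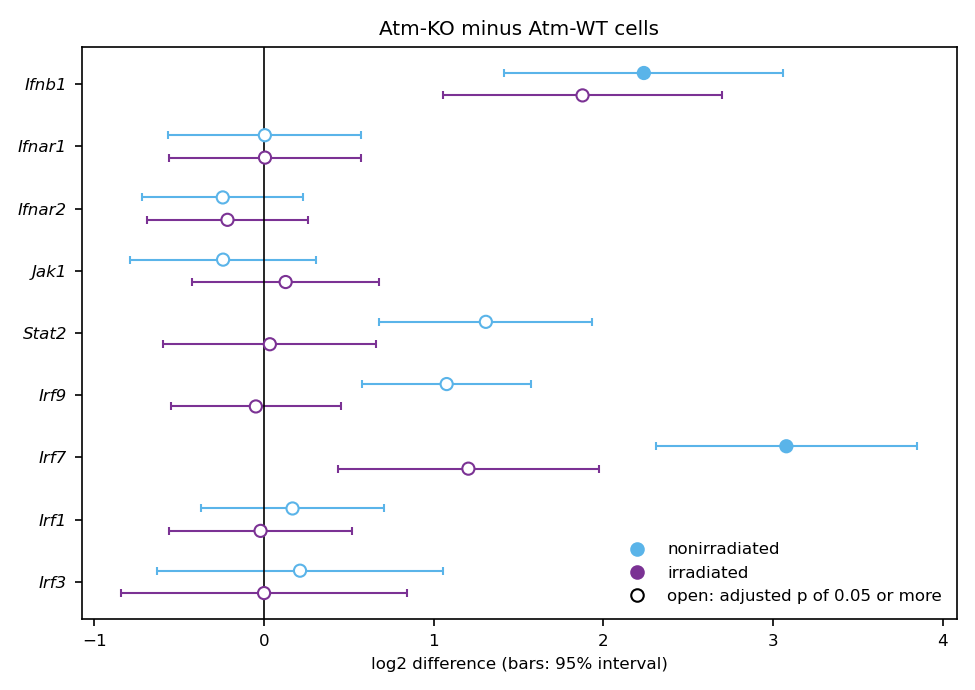
Atm-KO minus Atm-WT level (log2, horizontal axis) for each gene without and after irradiation, from limma on 12 arrays, with 95% intervals as bars and filled symbols for adjusted p under 0.05. Irf7 at 3.08 and Ifnb1 at 2.24 without irradiation are filled. Stat2 and Irf9 stand apart from 0 without irradiation and lie at 0.035 and -0.047 after it.

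The 4 genes that varied did so in different orders of groups. Mean Irf7 rose in the order nonirradiated Atm-WT (-0.83 ± 0.699, SD, n = 3), nonirradiated Atm-KO (2.25 ± 0.458), irradiated Atm-WT (2.94 ± 0.187) and irradiated Atm-KO (4.15 ± 0.284). The middle groups lay closest, with the highest nonirradiated Atm-KO sample at 2.61 and the lowest irradiated Atm-WT sample at 2.75. Irf9 had 1 low group, nonirradiated Atm-WT at 2.32 ± 0.191, and 3 groups that overlapped, at 3.44 ± 0.205, 3.40 ± 0.191 and 3.39 ± 0.193. Stat2 had nonirradiated Atm-WT at 2.51 ± 0.397, nonirradiated Atm-KO at 3.82 ± 0.259, and the irradiated groups overlapping at 4.49 ± 0.262 and 4.53 ± 0.366. Ifnb1 had its lowest mean in nonirradiated Atm-WT cells (-7.48 ± 0.387) and its highest in irradiated Atm-KO cells (-3.83 ± 0.388). Its other groups overlapped, at -5.71 ± 0.709 in irradiated Atm-WT and -5.24 ± 0.410 in nonirradiated Atm-KO cells.

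Across the 12 arrays, which share the 4 groups and their scaling, Pearson's r was 0.951 between Irf7 and Stat2, 0.944 between Irf9 and Stat2, 0.905 between Irf7 and Irf9, and 0.883 between Irf7 and Ifnb1. Irf1 and Irf3 had r = 0.748 with each other and 0.400 and 0.126 with Irf7. The named genes with the highest r to Irf7 were Oas2 (0.990), Sp110 (0.985) and Oasl2 (0.978). For Stat2 they included Tap1 (0.980) and Adar (0.976), and for Irf9 they were Isg15 (0.970), Dhx58 (0.963) and Bst2 (0.961). For Ifnb1 they were Klhl38 (0.955), Phf11d (0.944) and Oas1d (0.936). Irf3 was nearest to Zfpl1 (0.993), Map3k11 (0.992) and Cc2d1a (0.990), and Irf1 to Polr3e (0.953), Atad3a (0.938) and Stx1a (0.935). Ifnar1 was nearest to Maco1 (0.973), Ifnar2 to Axl (0.915) and Jak1 to Pcdh19 (0.966). None of the 9 genes named beside Irf3, Irf1, Ifnar1, Ifnar2 and Jak1 is on a list of interferon genes used here.

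The rest of the pathway was read from lists of genes. Tyk2, the kinase on Ifnar1, differed by 0.04 in Atm-WT and -0.14 in Atm-KO cells, and by 0.21 between nonirradiated genotypes, none of them called. Of 3 other interferon regulatory factors tested none was called by limma without a block in any comparison. Among these Irf8, a factor of myeloid cells, was lower in Atm-KO cells by -1.66 ± 0.439 without irradiation (adjusted p = 0.159) and by -1.49 ± 0.439 after it (adjusted p = 0.331). With replicate number as a block the irradiated difference of Irf8 was called (adjusted p = 0.0195).

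Of the other ligands, 17 were listed, 9 had a probe and 3 were tested, with 0 called in each comparison. Ifna9 and Ifna13 were well above background on all arrays, with group means of -4.03 to -3.80 and -4.76 to -4.26. Ifna4, Ifna12, Ifne and Ifnk were well above background on no array.

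Over all features 0.423% were called higher after irradiation of Atm-WT cells. Of 19 sensors and adaptors that lead to interferon production, 3 were called higher in that comparison and 0 lower, with a median of 0.20. They were Zbp1, a sensor of Z-form nucleic acid (3.85 ± 0.430, limma adjusted p = 0.00132), Dhx58 (2.53 ± 0.384, adjusted p = 0.00980) and Ifih1 (2.31 ± 0.406, adjusted p = 0.0270), of the RNA-sensing helicase family. Each of these genes is itself interferon-inducible. Zbp1 and Dhx58 were also called higher in nonirradiated Atm-KO cells, by 2.17 ± 0.430 (adjusted p = 0.0380) and 2.38 ± 0.384 (adjusted p = 0.0107). Cgas, the sensor of cytosolic DNA, differed by -0.030 ± 0.277 in Atm-WT and 0.13 ± 0.277 in Atm-KO cells, neither of them called.

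Of 11 restraints of interferon signalling, 1 was called higher in Atm-WT cells after irradiation, against 0.423% of all features, and 0 lower. Their median was 0.0092. The called gene was Usp18, which blocks Ifnar2 signalling and rose by 3.15 ± 0.250 (limma, adjusted p = 0.000153). Usp18 was also higher in nonirradiated Atm-KO cells, by 3.02 ± 0.250 (adjusted p = 0.000146), and differed by 0.71 ± 0.250 on irradiation of Atm-KO cells (adjusted p = 0.450). The difference of its irradiation effects was -2.43 ± 0.353 (adjusted p = 0.0975, and 0.0287 with the block). Socs1, an inhibitor of Jak kinases, differed by 0.08 and -0.27 on irradiation of Atm-WT and Atm-KO cells, neither called.

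Of 32 interferon-stimulated genes tested, 18 were called higher after irradiation of Atm-WT cells and 0 lower, with a median difference of 2.12. Over all features 0.423% were called higher in that comparison. In Atm-KO cells 0 were called, against 0.00543% of all features, with a median of 0.77. With the pair as a block 27 were called higher in Atm-WT cells, against 1.64% of all features, and 6 in Atm-KO cells, against 1.18%. Between nonirradiated genotypes 17 were called higher in Atm-KO cells, against 0.391% of all features, with a median of 1.78. After irradiation 1 was, against 0.0597% of all features, with a median of 0.40. Isg15, a ubiquitin-like protein, rose by 2.71 ± 0.293 in Atm-WT cells (limma, adjusted p = 0.00100) and differed by 0.31 ± 0.293 in Atm-KO cells (adjusted p = 0.872). Oas1a, an enzyme that activates RNase L, was the interferon-stimulated gene with a called difference of irradiation effects without the block, -2.99 ± 0.357 (adjusted p = 0.0412, and 0.0167 with the block). Isg15 was called lower as well with the block (-2.40, adjusted p = 0.0287). The unblocked Oas1a call was lost when any array was left out, except replicate 2 of the nonirradiated Atm-WT group. It stood 5.04 ± 0.253 higher in nonirradiated Atm-KO cells (adjusted p = 2.27e-06) and 2.05 ± 0.253 higher in irradiated ones (adjusted p = 0.0112).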

How the data were processed

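RNA of 12 fibroblast samples was measured on single-colour arrays. The authors deposited spot intensity, per the file headers from Feature Extraction 10.7.1.1 with background subtraction and detrending within each array; the submitters' processing notes name version 11.0, which was not resolved. They also deposited a table of log2 values, whose 41174 probes shared with the scanner files matched the levels used here once a probe's median over arrays was taken off.

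Control spots and outlier spots were left out. Levels were log2 processed signal minus each array's 75th percentile, with spots of a probe averaged. Probes were named by accession through RefSeq (25097 of 41174 probes, 17305 genes). A gene was represented by its brightest probe, and the second probes of Irf9, Irf1, Ifnar2 and Jak1 were fitted separately. The test took in the 18431 features that exceeded background on the 3 arrays of some group. A group-means model over 12 arrays was fitted using R 4.3.3 and its packages limma 3.58.1 (eBayes, Benjamini-Hochberg threshold 0.05) and data.table (version 1.17.8), with 8 residual and 4.13 prior degrees of freedom. No fold is given for Ifnb1, which was not well above background on most arrays. On simulated data for the Atm-WT comparison with 18431 features, the fit called 48 of 50 differences of -3, 42 of 50 of 3, and 25 of 50 of each sign at 1.5 in size, with 8 false calls.

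Replicate numbers were taken to pair samples where every same-number correlation of deviations from group means was over 0.1. The range was 0.481 to 0.852 over Atm-WT pairs, 0.269 to 0.510 over Atm-KO pairs and 0.218 to 0.628 between irradiated genotypes. Replicates 2 and 3 also correlated across numbers, at 0.335 and 0.284 in Atm-KO cells, above the 0.269 of the replicate 2 pair. Between irradiated genotypes they did so at 0.387 and 0.341, above the 0.218 of replicate 3. In these 2 comparisons the check therefore does not single out the same-number pairs. The number of arrays limits the precision. Members and lists were chosen with earlier results of these data known. Named from the lists were called genes with the smallest adjusted p, up to 3 a list and comparison, some left out for length, plus Tyk2, Usp18, Socs1, Isg15 and Cgas. Irf8, Cdh5, C1qc, Cd53 and the ligands by array were added after their values were seen. Neighbours were the 3 named genes with the highest Pearson's r. Some genes and the results that need them are not reported here. Alternatives covered normexp (offset 50, on the deposited median and background intensity, since no mean signal column was used here), quantile normalization, the authors' values, filters, probe averaging, slide, pairs and left-out samples; the blocked fit without replicate 1 samples was chosen after seeing the data. No coordinates of the gene table are given, since the files' build (mm9) differs.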

Additional observations from a re-analysis of the deposited data

How the results depend on the processing

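The calls of Irf7 and Stat2 on irradiation of Atm-WT cells held in all 12 fits that left out 1 array, and so did that of Irf7 between nonirradiated genotypes. Of 1066 member differences recomputed under alternatives, 78 changed sign, and 1 of these was of a called value (Ifnb1). Leaving Ifnb1 aside, the values of the main fit that changed sign were at most 0.22 in size. Their recomputed values reached -0.67, for Irf3 between irradiated genotypes with slide as a fixed term. For all changes the cause was not tested.

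Counts of members called changed as follows. In Atm-WT cells the irradiation count of 2 became 4 with slide as a fixed term, 4 with the replicate block, 3 with quantile normalization, with slide as a random block and without replicate 3 of the irradiated group, and 1 with only the groups compared. For irradiation in Atm-KO cells 0 became 1 with the replicate block. For the genotypes without irradiation 2 became 1 with normexp, with a filter on all 12 arrays and with slide as a fixed term, 3 with quantile normalization, and 1 to 4 with 1 array left out. There the replicate numbers did not pair the samples (correlations -6.5e-05, 0.18 and -0.22), and the replicate block gave 4, with and without replicate 1 samples. For the irradiated genotypes 0 became 2 with the replicate block, with and without replicate 1 samples, and 0 to 1 with 1 array left out.

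Over all features, calls on irradiation of Atm-WT cells numbered 82, and 44 with normexp, 139 with slide as a fixed term, 417 with the replicate block and 44 with only the groups compared. In Atm-KO cells 1 call became 377 with the replicate block, and for the difference of effects 1 became 4. Between nonirradiated genotypes 158 became 62 with normexp, 103 without a filter, 87 with the strict filter, 34 with slide as a fixed term, 315 with the replicate block and 1909 with the block and no replicate 1 samples. Between irradiated genotypes 38 became 13, 20, 15, 3, 140 and 1240 in the same order, and 23 with only the groups compared. With 1 array left out, calls over all features ranged from 49 to 101 on irradiation of Atm-WT cells, 0 to 2 in Atm-KO cells, 0 to 1 for the difference of effects, 57 to 225 between nonirradiated and 3 to 104 between irradiated genotypes. Normexp moved the median of all features from -0.02 to -0.16 on irradiation of Atm-WT cells, from -0.06 to 0.16 for the difference of effects and from 0.04 to -0.13 between nonirradiated genotypes. Slide as a fixed term moved it from -0.0050 to -0.15 between irradiated genotypes.

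Sign changes on irradiation of Atm-WT cells were, for Irf3, 0.20 with normexp, 0.045 with quantile normalization, 0.0043 with the authors' deposited values and 0.079 with the replicate block and no replicate 1 samples, and for Ifnb1 -0.67 with normexp. On irradiation of Atm-KO cells they were, for Irf1, -0.039 with normexp, -0.00033 with the authors' values and -0.036 with probes averaged, for Irf9 0.11 with quantile normalization and 0.016 with probes averaged, and, with the block and no replicate 1 samples, 0.12 for Irf3 and -0.11 for Ifnar1. For the difference of effects they were -0.12 (Ifnar1), -0.27 (Ifnar2) and 1.07 (Ifnb1) with normexp, 0.15 (Ifnb1) with quantile normalization, -0.016 (Ifnar1) with the authors' values, and 0.037 (Irf3), -0.19 (Ifnar1), -0.065 (Ifnar2) and 0.14 (Ifnb1) with the block and no replicate 1 samples. Between nonirradiated genotypes they were -0.43 (Ifnb1) with normexp, -0.017 (Ifnar1) with quantile normalization, -0.46 (Irf3) and -0.29 (Ifnar1) with slide as a fixed term, -0.057 (Ifnar1) with slide as a random block and -0.0092 (Irf1) with the block and no replicate 1 samples. Between irradiated genotypes they were -0.020 (Stat2) with normexp, -0.67 (Irf3), -0.25 (Stat2) and -0.29 (Ifnar1) with slide as a fixed term, and -0.14 (Irf3), -0.023 (Stat2) and -0.056 (Ifnar1) with slide as a random block.

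With 1 array left out, values that changed sign ranged on irradiation of Atm-WT cells from -0.020 to 0.16 for Ifnar1, -0.086 to 0.18 for Ifnar2 and -0.21 to 0.28 for Irf3. In Atm-KO cells they ranged from -0.21 to 0.19 for Ifnar1, -0.10 to 0.13 for Irf1, -0.49 to 0.22 for Irf3 and -0.11 to 0.10 for Irf9. For the difference of effects they ranged from -0.26 to 0.14 for Ifnar1, -0.11 to 0.16 for Ifnar2 and -0.50 to 0.23 for Irf3. Between nonirradiated genotypes Ifnar1 ranged from -0.13 to 0.26. Between irradiated genotypes they ranged from -0.079 to 0.11 for Ifnar1, -0.20 to 0.11 for Irf1, -0.29 to 0.44 for Irf3, -0.16 to 0.063 for Irf9, -0.032 to 0.32 for Jak1 and -0.11 to 0.25 for Stat2. Under the filter on all arrays Ifnb1 has no value. Ifnb1 was well above background on 5 arrays, which limits its values.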
